A study of Arabidopsis thaliana with 16 samples.

Results

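The genes described here are carried by the plastid and mitochondrial genomes of Arabidopsis thaliana. They were chosen as the single-gene probe sets whose gene the annotation places on either organelle genome, which gave 92 probe sets for 85 genes, of 22746 probe sets that measured plant RNA and 13513 with a single named gene. Those 13513 stand for 13350 genes. The plastid genome supplied 69 genes with 1 probe set each, of 85 annotated protein-coding genes. The mitochondrial genome supplied 16 genes with 23 probe sets, of 33 annotated protein-coding genes. A further 8 plastid and 12 mitochondrial probe sets match several genes and were left out, among them those of rps12, rpl2, ycf2 and ndhB in the repeated part of the plastid genome.

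The tissue was root of 6-day-old seedlings of the Columbia ecotype, cut into 4 numbered longitudinal zones that the labels call developmental stages without naming the tissue in each. All seedlings spent their first 5 days on MES-buffered medium at pH 5.7. They then spent 24 h on DMG-buffered medium, which was identical for all except that its pH was 5.7 for the standard groups and 4.6 for the low pH groups. The 4 zones and 2 pH values made 8 groups of 2 arrays, 16 in all, with no mutant or transgene. The labels state neither the number of roots in a sample nor whether the 2 replicates of a group were grown apart. The p-values below therefore rest on the differences between these arrays alone, and those may be technical. In these bulk samples fewer plastids or cells and less RNA per plastid or cell cannot be told apart.

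The plastid genome encodes core subunits of the photosystems, the cytochrome b6f complex, ATP synthase and the NDH complex, the large subunit of Rubisco, and part of the plastid's own ribosome and RNA polymerase. The plastid-encoded polymerase transcribes most photosynthesis genes, while a nucleus-encoded phage-type polymerase transcribes genes such as rpoB, accD and clpP, and many genes use both. The mitochondrial genome encodes a few subunits of the respiratory complexes and the machinery that attaches haem to cytochrome c. Root plastids are mostly leucoplasts and amyloplasts, in which photosynthesis transcripts are usually scarce. Organelle messages mostly lack stable poly(A) tails, so a labelling that starts from poly(A) captures them unevenly.

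Each array gave 1 linear intensity per probe set, computed and scaled with MAS5 by the authors. A value below is such an intensity unless it is called a log2 value, which is log2(intensity + 16). Levels of different genes are not compared, since each probe set has its own response. Differences were tested with limma over the 16405 probe sets that passed a filter on dim signal, and a gene was called changed at an adjusted p under 0.05. All 69 plastid genes and 14 of 16 mitochondrial genes passed that filter, and nad2 and nad7 did not. Replicate arrays correlated with r from 0.838 to 0.958. The first quartile of intensity on an array, a measure of its dim signal, ran from 15.6 to 38.4. In 4 groups replicate 2 had a first quartile over 1.5 times that of replicate 1, namely zones 2, 3 and 4 at pH 5.7 and zone 3 at pH 4.6.

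The organelle genes moved together from array to array, and they moved with that first quartile. The mean log2 value of the 69 plastid genes ran from 7.21 to 10.3 over the 16 arrays. In zone 1 it was 8.25 and 8.78 at pH 5.7 against 9.91 and 10.3 at pH 4.6, so the groups did not overlap. In zone 2 it was 8.21 and 9.75 at pH 5.7 against 8.04 and 8.14 at pH 4.6. In zone 3 the replicates lay far apart at both pH values, 7.76 and 10.3 at pH 5.7 and 7.90 and 9.89 at pH 4.6. In zone 4 it was 7.21 and 8.45 at pH 5.7 against 8.18 and 7.94 at pH 4.6. The mean of the 16 mitochondrial genes followed the same course, from 7.27 and 7.56 to 8.66 and 8.61 in zone 1, and between 6.53 and 8.77 over all arrays.

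**Figure D1:**
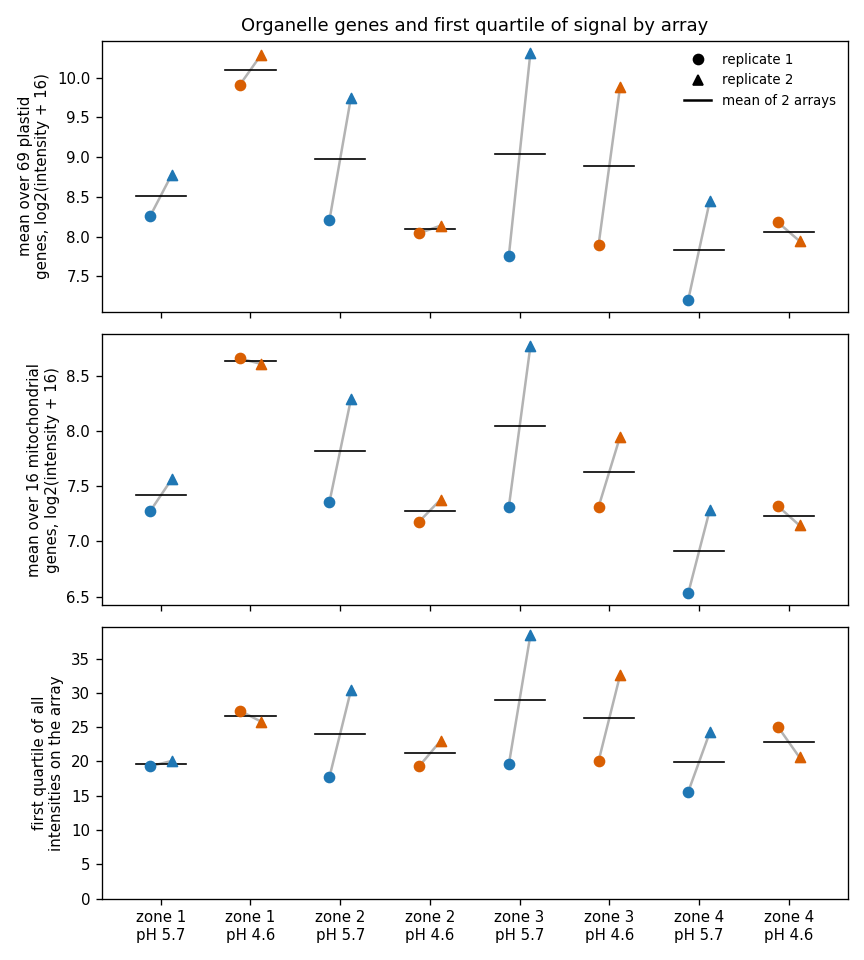
Mean log2(intensity + 16) of the 69 plastid genes (top) and the 16 mitochondrial genes (middle), and the first quartile of all intensities (bottom, linear), for each of the 16 arrays; circles are replicate 1, triangles replicate 2, bars the mean of 2 arrays, blue pH 5.7 and orange pH 4.6. Zone 1 at pH 4.6 has 2 high and close replicates, whereas zone 3 holds replicates at 7.76 and 10.3 for the plastid genes at pH 5.7.

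Across the 16 arrays the plastid mean correlated with the log2 first quartile at r = 0.860 (Spearman's rho 0.756, and r = 0.794 without the 2 arrays farthest from the median first quartile). The mitochondrial mean did so at r = 0.829, and the 2 organelle means correlated with each other at r = 0.961. These are descriptions over arrays that share roots' zones and treatment. The median r with the log2 first quartile was 0.774 over the 69 plastid genes and 0.724 over the 14 mitochondrial genes that passed the filter, against 0.028 over all 16405 probe sets tested. Within a group, the array with the higher first quartile had the higher mitochondrial mean in 8 of 8 groups and the higher plastid mean in 7 of 8, zone 1 at pH 4.6 being the exception. In the replicate with the raised first quartile, 69 of 69 plastid genes had the higher value in zone 2 at pH 5.7 and in zone 3 at both pH values, and 65 of 69 in zone 4 at pH 5.7. The part of the first quartile in the organelle results was not tested beyond the values given beside them.

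**Figure D2:**
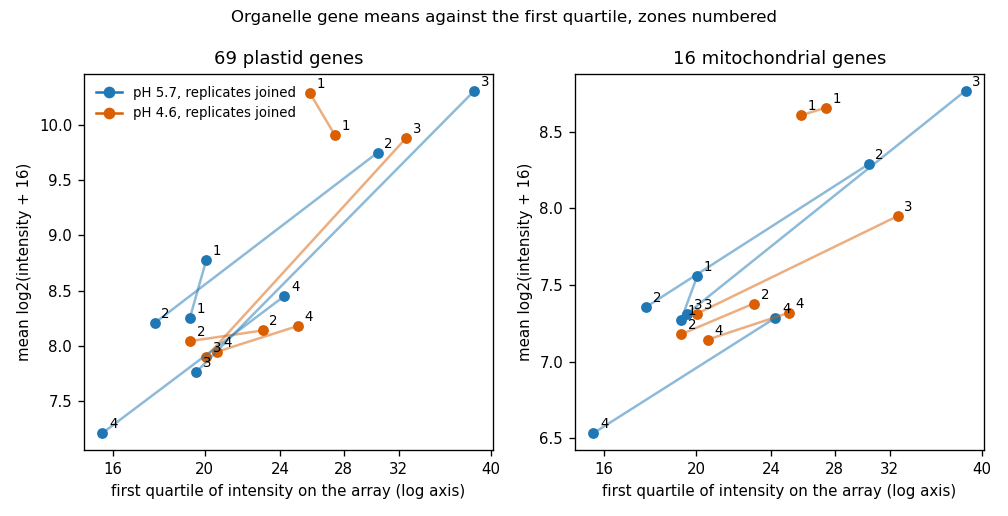
Mean log2(intensity + 16) of the plastid genes (left) and the mitochondrial genes (right) against the array's first quartile of intensity (log axis); each point is an array, the number is its zone, and a line joins the 2 replicates of a group. Most lines slope upward, and the 2 arrays of zone 1 at pH 4.6 lie above the others of like first quartile, at plastid means of 9.91 and 10.3.

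Zone 1 at pH 4.6 had the highest plastid and the highest mitochondrial mean of the 8 groups. All 83 genes tested had a higher mean at pH 4.6 than at pH 5.7, with a median log2 difference of 1.62 over the 69 plastid genes and 1.10 over the 14 mitochondrial genes, against 0.02 over all probe sets. The 2 low pH arrays both lay above both standard arrays for 64 of 69 plastid genes and 15 of 16 mitochondrial genes, where 25.9% of all probe sets did so. None of the 83 passed the adjusted threshold in limma, at a background of 0.305% of probe sets called higher, and 33 had an unadjusted p under 0.05, where 12.9% of all probe sets did. The first quartile of these arrays was 19.3 and 20.1 at pH 5.7 and 27.4 and 25.8 at pH 4.6. With the log2 first quartile as a covariate the median difference was 0.57 over the plastid and 0.62 over the mitochondrial genes, 60 of 69 plastid genes had a higher value, and none of the 83 passed the adjusted threshold, at a background of 0.347% called higher. The log2 3′ to 5′ ratio of the GAPDH controls, a measure of RNA integrity and labelling, was also higher at low pH here, at 7.99 and 5.77 against 4.95 and 5.59. For the actin controls it was 5.31 and 6.91 against 5.76 and 5.20. For the Ubq controls it was 3.73 and 3.28 against 3.04 and 3.29, so in both of these the groups overlapped. The part of these ratios in the difference was not tested.

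Leaving out the 4 arrays of raised first quartile left the zone 1 arrays and their differences as they were and changed only the estimate of spread. The SD of the plastid mean was between 0.88 and 1.80 in the 4 groups that lost an array. It was 0.07 to 0.37 in the 4 groups that kept both. The 4 groups were picked by the gap in first quartile between their replicates. Replicate differences of the plastid mean follow that gap, at r = 0.93 over the 8 groups. Each SD rests on 2 arrays, and a difference in spread was not tested. Both the main fit and the fit without those arrays assume an equal spread in all groups. In the main fit the zone 1 standard errors therefore also draw on the groups of wide spread. The lack of calls in zone 1 there does not show that the genes were unchanged. The lone arrays are likewise taken to vary like the rest in the fit without the 4 arrays of raised first quartile. The number of genes past the threshold in zone 1 was 40 in that fit, at a background of 1.24% called higher, and it is given as a value only, as are the other counts without those arrays.

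The high level of zone 1 at pH 4.6 was not shared by zone 2 at the same pH. From zone 1 to zone 2 at pH 4.6 all 83 genes had a lower mean, by a median of -1.98 on the log2 scale over the plastid genes and -1.28 over the mitochondrial genes. Both zone 2 arrays lay below both zone 1 arrays for 67 of 69 plastid and 16 of 16 mitochondrial genes, where 30% of all probe sets did so. Of the 83, 8 fell at the adjusted threshold, at a background of 3.44% called lower, and 60 had an unadjusted p under 0.05, where 24.2% of all probe sets did. The 8 were psbM, petG, ndhH and matK of the plastid and nad4L, nad9, cox2 and ccmFC of the mitochondrion. The first quartile went from 27.4 and 25.8 to 19.3 and 23.0 across this step. With the log2 first quartile as a covariate 33 of the 83 fell, at a background of 4.64%, and the plastid median was -1.21. Without the 4 arrays of raised first quartile the count was 67, at a background of 7.5%. With the mean of the 69 plastid genes on each array as a covariate it was 0. That covariate holds the shared fall of the plastid genes itself, so this count does not show whether they fell. The share of all probe sets called in that fit is not given.

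At pH 5.7 the same step gave a plastid median of 0.45 and no gene past the adjusted threshold in limma, at a background of 3.14% called either way, with 2 of 83 at an unadjusted p under 0.05, where 16.1% of all probe sets were. That median was -0.37 without replicate 2 of zone 2 at pH 5.7, one of the arrays of raised first quartile. In zones 2 and 3 low pH called no organelle gene in limma, at backgrounds of 0.384% and 2.8%. At an unadjusted p under 0.05 there were 9 and 1 of the 83, where 10.4% and 17.1% of all probe sets were. The plastid median was -0.89 in zone 2 and -0.19 in zone 3. Leaving out 1 array moved them between -1.65 and -0.17 in zone 2 and between -1.46 and 1.14 in zone 3, where the sign turned without replicate 2 at pH 5.7 or replicate 1 at pH 4.6. Both low pH arrays lay below both standard arrays in zone 2 for 33 of 69 plastid genes, against 21% of all probe sets, and for 0 of 69 in zone 3, against 16%. By role, the zone 2 medians were -1.36 for ATP synthase, with atpH lowest at -2.55, -1.15 for NDH, with ndhH lowest at -2.54, -0.20 for the RNA polymerase, and -0.17 and -0.76 for the large and small ribosomal subunits. Within the large subunit they ran from -2.49 for rpl22 to 0.61 for rpl20. A test of the difference between zones, the interaction of pH and zone, called none of the 83, at a background of 1.59%, and 11 had an unadjusted p under 0.05, where 16.9% of all probe sets did.

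In zone 4, 1 of the 83 genes rose at low pH, the mitochondrial gene nad5, at a background of 1.38% called higher, and 8 had an unadjusted p under 0.05, where 16.1% of all probe sets did. The plastid median there was 0.23, and it was -0.42 without replicate 1 of zone 4 at pH 5.7 and -0.28 with the log2 first quartile as a covariate. Both low pH arrays lay above both standard arrays for 17 of 69 plastid genes, against 29.2% of all probe sets. Averaged over the 4 zones, 3 of the 83 rose (psbA, rps18 and nad5), at a background of 3.66% called higher, and 13 had an unadjusted p under 0.05, where 20.3% of all probe sets did. The median of that average was 0.21 over the plastid genes and ran from -0.15 to 0.56 when 1 array was left out. By role the medians ran from -0.33 for ATP synthase to 0.45 for photosystem I among roles with more than 2 genes. Without the 4 arrays of raised first quartile the counts were 8 in zone 4 and 22 in the average, at backgrounds of 1.05% and 2.8%.

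**Figure D3:**
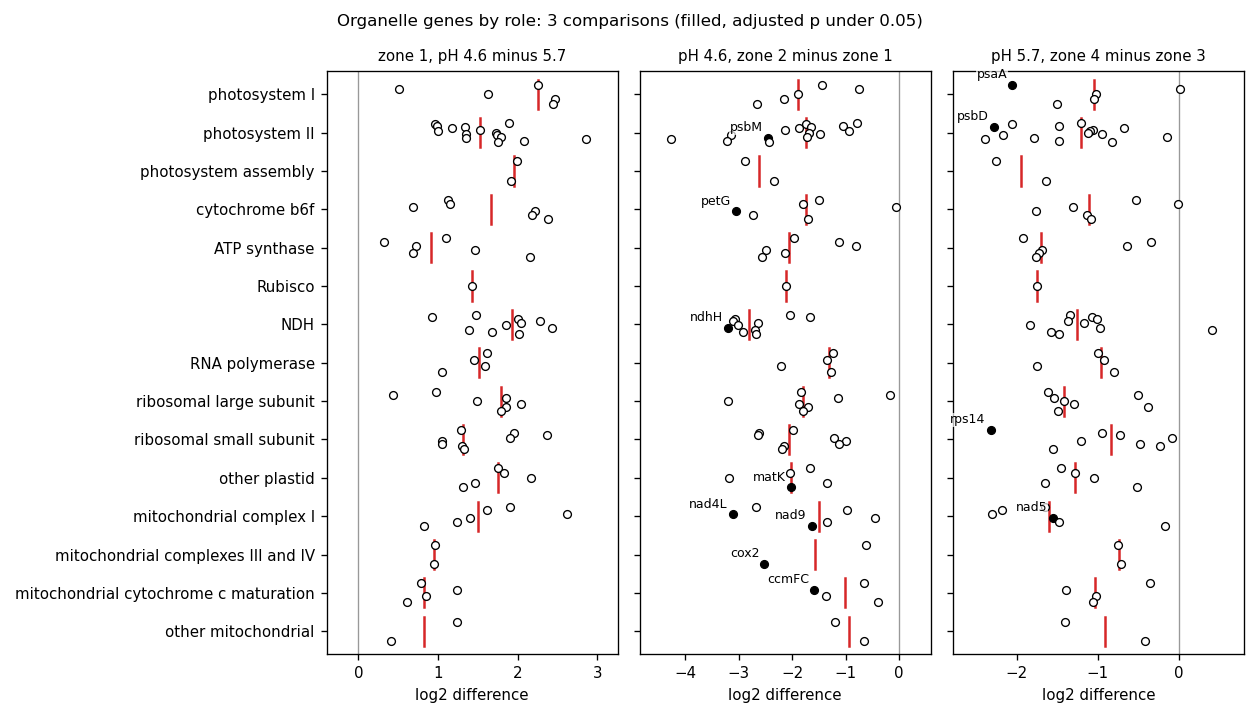
Log2 difference of each gene that passed the filter, grouped by role, for low pH in zone 1 (left), zone 2 minus zone 1 at pH 4.6 (middle) and zone 4 minus zone 3 at pH 5.7 (right); filled points passed the adjusted threshold, red bars are medians of a role. All points are above 0 on the left and below 0 in the middle, and the NDH genes have a median of -2.81 in the middle panel.

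Photosystem I, the complex that reduces ferredoxin, was measured by 5 genes, and psaA encodes one of its core chlorophyll-binding proteins. For psaA the values at pH 5.7 and pH 4.6 were 28.7 and 28.1 against 229 and 167 in zone 1, 64.1 and 203 against 63.0 and 60.0 in zone 2, 81.7 and 328 against 135 and 149.6 in zone 3, and 9.57 and 59.9 against 111 and 42.6 in zone 4. Its 2 low pH arrays in zone 1 stood above every other array except replicate 2 of zone 3 at pH 5.7 and, for the lower of them, replicate 2 of zone 2 at pH 5.7. The zone 1 difference was 2.25 ± 0.64 (SE, n = 2 arrays per group throughout), with an adjusted p of 0.125. From zone 3 to zone 4 at pH 5.7 psaA fell by 2.06 ± 0.64 on the log2 scale (limma adjusted p = 0.0469), a call lost under 17 of 25 alternative settings. The psaI arrays read 438 and 669.6 at pH 5.7 and 3399 and 2791 at pH 4.6 in zone 1, then 408 and 1117 against 627 and 736 in zone 2, 161 and 1248 against 321 and 1685 in zone 3, and 88.0 and 492 against 746 and 530.2 in zone 4. psaI, a small membrane subunit, was at its highest in zone 1 at pH 4.6. Photosystem I differences in zone 1 ran from 0.51 for psaB to 2.47 ± 0.87 for psaI.

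Photosystem II, the water-splitting complex, was measured by 15 genes. psbA read 154 and 172 in zone 1 at pH 5.7 against 490.3 and 856 at pH 4.6, 240.3 and 532 against 363 and 382 in zone 2, 411 and 1160.3 against 893 and 1363 in zone 3, and 207 and 403 against 1243 and 797 in zone 4. psbA encodes the D1 reaction-centre protein, and its low pH arrays were above the standard arrays in zones 1 and 4 without overlap. Averaged over the 4 zones psbA rose at low pH by 1.08 ± 0.24 (limma adjusted p = 0.016), and at pH 4.6 it rose from zone 2 to zone 3 by 1.53 ± 0.49 (adjusted p = 0.037). Of the 83 genes, psbA was the only one called across that step, at a background of 10.1% called higher, and 8 had an unadjusted p under 0.05, where 31.4% of all probe sets did.

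For psbC the values at pH 5.7 and pH 4.6 were 151 and 195 against 344 and 370.3 in zone 1, 188 and 279 against 181 and 149 in zone 2, 95.5 and 614 against 131 and 372 in zone 3, and 103 and 59.8 against 251 and 218 in zone 4. psbC encodes an inner antenna protein, and its low pH arrays were above both standard arrays in zones 1 and 4. The psbD arrays read 74.8 and 140.3 at pH 5.7 and 220.2 and 368 at pH 4.6 in zone 1, then 124 and 393 against 80.8 and 80.0 in zone 2, 174 and 556 against 168 and 284 in zone 3, and 28.6 and 87.7 against 112 and 75.6 in zone 4. psbD encodes the D2 reaction-centre protein and overlaps psbC on the plastid genome. psbD fell by 2.28 ± 0.59 from zone 3 to zone 4 at pH 5.7 (limma adjusted p = 0.0208). The psbC values of that step were 95.5 and 614 against 103 and 59.8, so its replicates in zone 3 lay apart.

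psbM read 4418 and 7536 in zone 1 at pH 5.7 against 11792 and 18321 at pH 4.6, 3109 and 3407 against 1620.2 and 4364 in zone 2, 1423 and 11538 against 3448 and 8766 in zone 3, and 808 and 1689 against 5935 and 7091 in zone 4. psbM encodes a low-molecular-mass subunit at the dimer interface, and in zone 4 its low pH arrays lay above both standard arrays. It fell from zone 1 to zone 2 at pH 4.6 by 2.46 ± 0.73 (limma adjusted p = 0.0485), a call lost under 16 of 25 alternative settings. For psbN the values at pH 5.7 and pH 4.6 were 208 and 561 against 2246 and 2979.7 in zone 1, 202 and 1728 against 112 and 128 in zone 2, 142 and 3914 against 157 and 2999 in zone 3, and 26.8 and 506 against 198 and 89.7 in zone 4. psbN is needed for photosystem II assembly and had the widest changes of these 15 genes, 2.86 ± 1.46 at low pH in zone 1 and -4.26 ± 1.46 from zone 1 to zone 2 at pH 4.6, with adjusted p of 0.43 and 0.0821. In psbN the replicates of zone 3 at pH 5.7 were 142 and 3914, the widest ratio between replicates among the photosystem II genes whose arrays are given. In zone 1 the smallest low pH difference of the 15 was 0.96, for psbB.

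The cytochrome b6f complex passes electrons between the photosystems, and 6 of its genes were measured. The petB arrays read 308 and 462 at pH 5.7 and 527 and 1397 at pH 4.6 in zone 1, then 274 and 879 against 235 and 239.9 in zone 2, 279 and 1062 against 344 and 1111 in zone 3, and 343 and 859 against 438 and 489.6 in zone 4. petB encodes cytochrome b6. petG read 41.6 and 73.1 in zone 1 at pH 5.7 against 246 and 408 at pH 4.6, 41.3 and 162 against 22.3 and 26.5 in zone 2, 45.0 and 445 against 35.4 and 237 in zone 3, and 13.7 and 66.1 against 25.4 and 26.1 in zone 4. petG, which encodes a small subunit, fell from zone 1 to zone 2 at pH 4.6 by 3.05 ± 0.86 (limma adjusted p = 0.0393). Both of its zone 2 arrays were far below both zone 1 arrays. Another gene of the complex, petD, changed least across that step, by -0.05. For petL the values at pH 5.7 and pH 4.6 were 148 and 321 against 1166 and 947 in zone 1, 90.0 and 195 against 149.6 and 140.5 in zone 2, 92.6 and 528 against 105 and 909 in zone 3, and 43.6 and 192 against 229 and 251 in zone 4. petL is another small subunit and had low pH arrays above both standard arrays in zone 1.

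The plastid ATP synthase had 6 genes and showed the smallest low pH difference in zone 1 of all plastid roles with more than 1 gene, a median of 0.91. The atpB arrays read 419.6 and 465 at pH 5.7 and 359 and 863 at pH 4.6 in zone 1, then 537 and 758 against 213 and 287 in zone 2, 273 and 977 against 239 and 583 in zone 3, and 372 and 448 against 279 and 385 in zone 4. atpB encodes the beta subunit of the catalytic head, and its zone 1 difference of 0.33 ± 0.53 was the smallest of the 69 plastid genes. atpH read 435 and 709 in zone 1 at pH 5.7 against 461 and 1768 at pH 4.6, 660.0 and 2220.4 against 172 and 218 in zone 2, 807 and 2993 against 404 and 1297 in zone 3, and 195 and 1065 against 209 and 154 in zone 4. atpH encodes the subunit of the membrane ring. Its low pH arrays were below both standard arrays in zone 2, and the groups overlapped in the other zones. For atpA the values at pH 5.7 and pH 4.6 were 331 and 562 against 519 and 1708 in zone 1, 389.9 and 1557 against 219 and 241 in zone 2, 232 and 3676 against 284 and 1074 in zone 3, and 153 and 364 against 160.1 and 153 in zone 4. atpA encodes the alpha subunit, and its replicate 2 of zone 3 at pH 5.7 read highest of the 16 arrays.

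The rbcL arrays read 757 and 1319 at pH 5.7 and 2251 and 3272 at pH 4.6 in zone 1, then 937 and 2862 against 664 and 569 in zone 2, 1047 and 6318 against 1330.0 and 3640.2 in zone 3, and 388 and 1453 against 1142 and 916 in zone 4. rbcL encodes the large subunit of Rubisco, the carbon-fixing enzyme. Its zone 1 difference at low pH was 1.43 ± 0.75 (limma adjusted p = 0.44), and its change from zone 1 to zone 2 at pH 4.6 was -2.11 ± 0.75 (adjusted p = 0.0924). In the fit of group means alone no comparison called rbcL.

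The plastid NDH complex, which returns electrons from ferredoxin to plastoquinone in cyclic flow, was measured by 10 of its plastid genes. ndhF read 36.9 and 141 in zone 1 at pH 5.7 against 335 and 387 at pH 4.6, 58.2 and 86.7 against 32.5 and 59.7 in zone 2, 31.0 and 235 against 20.8 and 177 in zone 3, and 3.26 and 105 against 54.6 and 33.3 in zone 4. For ndhD the values at pH 5.7 and pH 4.6 were 411 and 702 against 2386 and 2031 in zone 1, 282 and 880.0 against 171 and 359.5 in zone 2, 175 and 2026 against 332 and 1879 in zone 3, and 153 and 558 against 227 and 285 in zone 4. ndhF and ndhD encode membrane subunits of the proton-pumping arm. The NDH genes had a median difference of 1.93 at low pH in zone 1 and -2.81 from zone 1 to zone 2 at pH 4.6. Of the 10, 4 and 9 had an unadjusted p under 0.05, where 12.9% and 24.2% of all probe sets did. The ndhH arrays read 18.1 and 52.7 at pH 5.7 and 259.7 and 230.0 at pH 4.6 in zone 1, then 70.8 and 298 against 25.3 and 3.58 in zone 2, 26.4 and 233 against 20.4 and 140.2 in zone 3, and 5.49 and 112 against 16.5 and 15.5 in zone 4. ndhH, a subunit of the membrane-extrinsic arm, fell by 3.19 ± 0.94 across the latter step (limma adjusted p = 0.0461), and one array of zone 2 read 3.58. The smallest change of the 10 across that step was -1.66, for ndhC.

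The plastid-encoded RNA polymerase had 4 genes, with a median difference of 1.52 at low pH in zone 1 and -1.31 from zone 1 to zone 2 at pH 4.6. rpoA read 2279.8 and 3483 in zone 1 at pH 5.7 against 9677 and 7816 at pH 4.6, 1507 and 4640.3 against 3974 and 3411 in zone 2, 1266 and 8031 against 1429.6 and 7728 in zone 3, and 1174 and 2160.0 against 3416 and 2964 in zone 4. rpoA encodes the alpha subunit. For rpoB the values at pH 5.7 and pH 4.6 were 32.0 and 58.3 against 136 and 159 in zone 1, 48.5 and 174 against 65.8 and 34.1 in zone 2, 35.2 and 136 against 72.0 and 155 in zone 3, and 8.79 and 72.4 against 53.2 and 35.7 in zone 4. rpoB encodes the beta subunit. In both genes the low pH arrays of zone 1 were above both standard arrays of that zone. The rpoC1 arrays read 242 and 465 at pH 5.7 and 822 and 1328 at pH 4.6 in zone 1, then 212 and 843 against 284 and 160.0 in zone 2, 137 and 1269 against 150.1 and 668 in zone 3, and 59.0 and 215 against 141 and 128 in zone 4. rpoC1 encodes the beta prime subunit and had the largest change of the 4 from zone 1 to zone 2 at pH 4.6, -2.21 ± 0.88 (limma adjusted p = 0.135). In the fit of group means alone no comparison called a gene of the polymerase.

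The plastid ribosome was measured by 7 genes of the large and 8 of the small subunit, with median differences of 1.79 and 1.31 at low pH in zone 1. rps4 read 2558 and 4227 in zone 1 at pH 5.7 against 9291 and 7344 at pH 4.6, 2101 and 7110.0 against 1999.7 and 1626 in zone 2, 1133 and 9209.9 against 1445 and 8156 in zone 3, and 637 and 1886 against 1842 and 1396 in zone 4. rps4 encodes a protein that in bacteria starts assembly of the small subunit. For rps18 the values at pH 5.7 and pH 4.6 were 156 and 149 against 688 and 546 in zone 1, 115 and 224 against 268 and 243 in zone 2, 134 and 206 against 123 and 403 in zone 3, and 136 and 181 against 199 and 246 in zone 4. rps18 rose at low pH in the mean of 4 zones by 0.84 ± 0.22 (limma adjusted p = 0.0354), and its low pH arrays in zones 1, 2 and 4 were above both standard arrays. The rps14 arrays read 87.6 and 102 at pH 5.7 and 262 and 248 at pH 4.6 in zone 1, then 112 and 391 against 93.3 and 27.1 in zone 2, 165 and 740.1 against 142 and 252 in zone 3, and 45.0 and 74.3 against 164 and 105 in zone 4. rps14 fell from zone 3 to zone 4 at pH 5.7 by 2.32 ± 0.64 (adjusted p = 0.0277). In zone 3 the higher rps14 value came from the array with the first quartile of 38.4. The smallest ribosomal changes in zone 1 and across the step to zone 2 were those of rpl16, at 0.43 and -0.17. rpl22 read 547 and 925 in zone 1 at pH 5.7 against 1410.1 and 2908 at pH 4.6, 419.7 and 3521 against 168 and 249 in zone 2, 249.9 and 3544 against 275 and 2137 in zone 3, and 195 and 609 against 122 and 164 in zone 4. rpl22, also of the large subunit, changed across that step by -3.21 ± 1.10 (adjusted p = 0.0837).

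The other 5 plastid genes serve outside the electron transport chain and the ribosome, apart from ccsA, which is needed to attach haem to cytochromes. For accD the values at pH 5.7 and pH 4.6 were 165 and 251 against 463 and 1126 in zone 1, 238 and 751 against 230.3 and 207 in zone 2, 205 and 1009 against 243 and 463 in zone 3, and 146 and 171 against 275 and 238 in zone 4. accD encodes a subunit of acetyl-CoA carboxylase, the first enzyme of fatty acid synthesis. The clpP arrays read 1425 and 1406 at pH 5.7 and 3877 and 3982 at pH 4.6 in zone 1, then 865 and 1395 against 1477 and 1584 in zone 2, 679 and 4296 against 557 and 1909 in zone 3, and 478 and 598 against 1043 and 930.1 in zone 4. clpP encodes the catalytic subunit of the plastid Clp protease. matK read 1686 and 2164 in zone 1 at pH 5.7 against 5436 and 4166 at pH 4.6, 1124 and 1955 against 1325 and 1015 in zone 2, 507 and 2359 against 567 and 1956 in zone 3, and 686 and 856 against 1351 and 1399 in zone 4. matK encodes an intron maturase, and it fell from zone 1 to zone 2 at pH 4.6 by 2.02 ± 0.58 (limma adjusted p = 0.042), a call lost under 14 of 25 alternative settings. The median difference of the 5 genes at low pH in zone 1 was 1.75. An unadjusted p under 0.05 was found for 4 of 5, where 12.9% of all probe sets had one.

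Among the mitochondrial genes, 8 encode subunits of respiratory complex I, and 6 of these passed the filter. For nad4 the values at pH 5.7 and pH 4.6 were 3438 and 4218 against 14351 and 9519 in zone 1, 3316 and 13732 against 5494 and 6424 in zone 2, 2678 and 19082 against 2819 and 5116 in zone 3, and 1011 and 2443 against 4459 and 3390.4 in zone 4. nad4 encodes a membrane subunit. The nad4L arrays read 97.9 and 143 at pH 5.7 and 796 and 827 at pH 4.6 in zone 1, then 112 and 724 against 78.8 and 80.3 in zone 2, 128 and 1646 against 115 and 231 in zone 3, and 71.9 and 95.1 against 132 and 112 in zone 4. nad4L had the largest mitochondrial difference at low pH in zone 1, 2.62 ± 0.85 (limma adjusted p = 0.19), and fell by 3.11 ± 0.85 from zone 1 to zone 2 at pH 4.6 (adjusted p = 0.0331). nad9 read 165 and 147 in zone 1 at pH 5.7 against 343 and 239.8 at pH 4.6, 72.3 and 135 against 70.4 and 95.3 in zone 2, 57.0 and 130.2 against 79.9 and 117 in zone 3, and 73.9 and 78.4 against 106 and 46.2 in zone 4. nad9, a matrix-arm subunit, fell across the same step by 1.63 ± 0.44 (adjusted p = 0.0314). For nad2 the values at pH 5.7 and pH 4.6 were 3.48 and 18.9 against 45.2 and 90.5 in zone 1, 23.1 and 60.0 against 4.25 and 43.1 in zone 2, 31.0 and 23.0 against 3.79 and 16.5 in zone 3, and 2.0 and 6.71 against 5.21 and 26.2 in zone 4. nad2 was below the filter on dim signal and was not tested.

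The nad5 arrays read 137 and 135 at pH 5.7 and 399.8 and 372 at pH 4.6 in zone 1, then 133 and 228 against 246 and 312 in zone 2, 129.7 and 322 against 203 and 260.3 in zone 3, and 40.8 and 84.8 against 282 and 195 in zone 4. nad5 rose at low pH in the mean of 4 zones by 0.98 ± 0.21 (limma adjusted p = 0.012) and in zone 4 by 1.73 ± 0.42 (adjusted p = 0.0359). At pH 5.7 it fell from zone 3 to zone 4 by 1.55 ± 0.42 (adjusted p = 0.025). The low pH arrays read above both standard arrays in zones 1, 2 and 4, and in zone 3 they lay between them. A second nad5 probe set had a mean low pH effect of 0.08 and was not called. The probe set given above carries the suffix that marks probes shared within a family, as do those of matR, mttB, ccmFC and nad6, and the nuclear genome of this species holds copies of mitochondrial genes, so the source of its signal was not tested.

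nad1, another complex I gene, had 7 probe sets. They were read on the same arrays, so they are not repeats of a condition and cannot check a shift shared by an array. At low pH in zone 1 all 7 had a higher mean, by 1.04 to 2.58. From zone 1 to zone 2 at pH 4.6 all 7 had a lower mean, by -2.68 to -0.35, and 1 of the 7 fell at the adjusted threshold. In the mean of 4 zones 3 were higher and 4 lower, none of them called.

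cox1 read 677 and 944 in zone 1 at pH 5.7 against 1748 and 1407 at pH 4.6, 724 and 1149.7 against 879 and 1165 in zone 2, 1194 and 1446 against 1403 and 2170.2 in zone 3, and 672 and 892 against 1018 and 674 in zone 4. cox1 encodes the catalytic subunit of cytochrome c oxidase, and its zone 1 difference was 0.96 ± 0.33 (limma adjusted p = 0.222). For cox2 the values at pH 5.7 and pH 4.6 were 77.7 and 69.6 against 170.4 and 145 in zone 1, 36.0 and 111 against 27.3 and 5.02 in zone 2, 37.9 and 116 against 49.2 and 46.5 in zone 3, and 20.2 and 57.2 against 36.4 and 81.4 in zone 4. cox2 encodes the subunit that receives electrons from cytochrome c. From zone 1 to zone 2 at pH 4.6 it fell by 2.52 ± 0.58 (limma adjusted p = 0.0134), the smallest adjusted p among the 8 genes of that step. Its value of 5.02 in zone 2 lay under the first quartile of that array, 23.0. Over the alternative settings the change ran from -3.60 to -1.72. The ccmB arrays read 112 and 125 at pH 5.7 and 220.5 and 213 at pH 4.6 in zone 1, then 81.8 and 139 against 163 and 106 in zone 2, 118 and 95.6 against 73.1 and 139 in zone 3, and 63.9 and 98.9 against 148 and 190.4 in zone 4. ccmB takes part in the transport steps of cytochrome c maturation. ccmFC read 394 and 433 in zone 1 at pH 5.7 against 1168 and 844 at pH 4.6, 296 and 692 against 344 and 298 in zone 2, 314 and 862 against 305 and 490.3 in zone 3, and 138 and 258 against 261 and 197 in zone 4. ccmFC, part of the haem lyase, fell across the step by 1.59 ± 0.47 (adjusted p = 0.0461), a call also lost under 14 of 25. For matR the values at pH 5.7 and pH 4.6 were 34.0 and 69.9 against 149.7 and 127 in zone 1, 66.1 and 125 against 23.2 and 98.1 in zone 2, 78.3 and 321 against 70.9 and 70.2 in zone 3, and 30.8 and 80.5 against 43.1 and 32.2 in zone 4. matR encodes an intron maturase, and its differences of 1.23 ± 0.61 in zone 1 and -1.21 ± 0.61 across the step did not pass the threshold.

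From zone 3 to zone 4 at pH 5.7, 4 organelle genes fell (psaA, psbD, rps14 and nad5), at a background of 5.32% called lower, and 21 of 83 had an unadjusted p under 0.05, where 27.9% of all probe sets did. The median was -1.21 over the plastid and -1.22 over the mitochondrial genes. Without replicate 2 of zone 3 at pH 5.7 the plastid median was 0.04, and leaving out 1 array moved it down to -2.56 and the mitochondrial one between -2.13 and -0.45. Both zone 4 arrays lay below both zone 3 arrays for 11 of 69 plastid genes, against 23.9% of all probe sets, and for 8 of 16 mitochondrial genes. The first quartile was 19.6 and 38.4 in zone 3 and 15.6 and 24.3 in zone 4. Without the arrays of raised first quartile none of the 83 was called across this step, at a background of 2.83%, and without replicate 1 of zone 3 at pH 5.7 the count was 54, at a background of 10.2%. At pH 4.6 the same step called none, at a background of 4.19%, with 7 at an unadjusted p under 0.05, where 16.9% of all probe sets were. Its plastid median was -0.75, and 0.12 without replicate 2 of zone 3 at pH 4.6. From zone 2 to zone 3 at pH 5.7 none was called either, at a background of 30.5%, with 0 of 83 at an unadjusted p under 0.05, where 40.4% of all probe sets were.

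Because the plastid genes shared so much of their change, the mean of the 69 genes on each array was added to the model as a covariate, an alternative chosen after the data were seen. A difference in that fit is a difference at equal plastid mean, and since the mean holds the genes themselves, some genes must then lie above 0 and others below. At equal plastid mean 13 of the 83 genes changed at low pH in the mean of 4 zones, 9 higher and 4 lower, at backgrounds of 6% and 4.06%. The 9 were psbA by 0.97 ± 0.14, psaI by 0.93 ± 0.16, nad5, psbM, rpl20, petL, rps18, rpl32 and rpoA, which had the smallest difference of 0.58 ± 0.14. The 4 were atpH by -1.25 ± 0.22, rpl22 by -0.93 ± 0.16, ndhJ by -0.74 ± 0.16 and atpA by -0.73 ± 0.18. Of the 6 ATP synthase genes 5 had a value below 0 in this fit, atpE being the exception at 0.08.

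**Figure D4:**
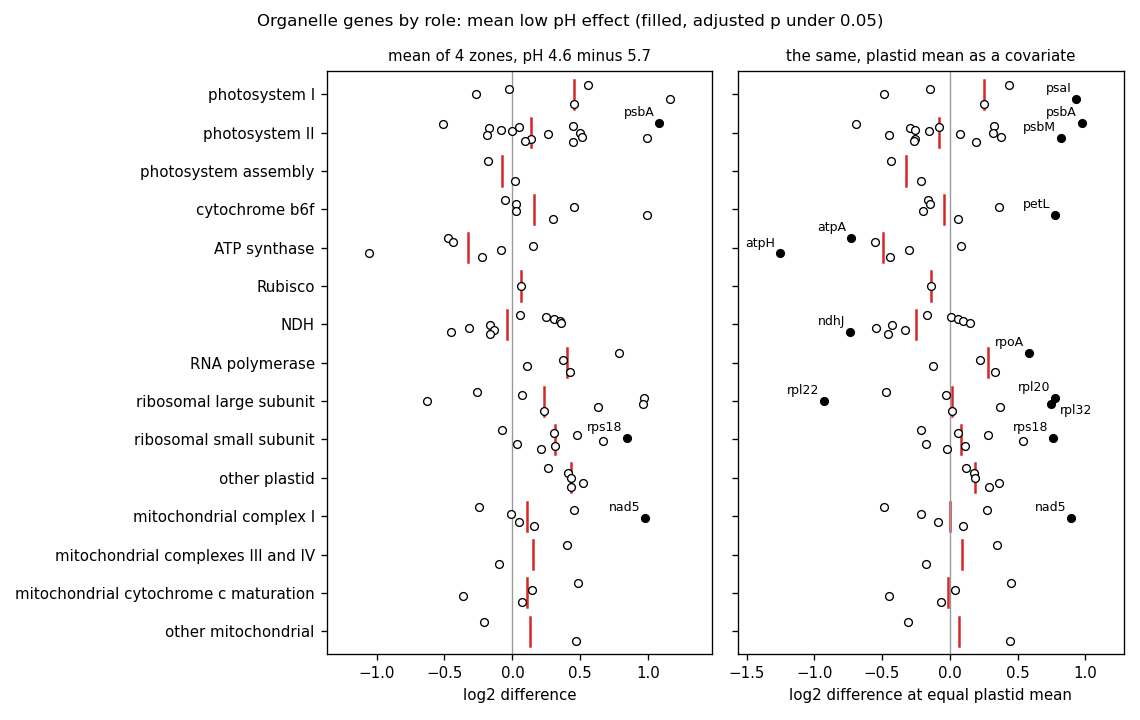
Log2 difference between pH 4.6 and pH 5.7 averaged over the 4 zones, by role, from the fit with 8 group means (left) and with the plastid mean as a covariate (right); filled points passed the adjusted threshold and red bars are medians of a role. The number of filled points goes from 3 to 13, with atpH, rpl22, ndhJ and atpA to the left of 0.

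The values relative to the plastid mean of each array show these shifts zone by zone. They come from the same arrays and the same mean that picked the genes, so they are not separate support for that fit. psaI lay higher at low pH by 0.89 in zone 1, 0.89 in zone 2, 0.83 in zone 3 and 1.26 in zone 4, with both low pH arrays above both standard arrays in all 4 zones. atpH lay lower by -0.89, -1.66, -0.94 and -1.52, with both low pH arrays below both standard arrays in all 4 zones. Each was the only one of the 69 plastid genes to do so in its direction, although both were named after the fit. psbA relative to the mean rose along the root as well, from -1.03 in zone 1 to 0.43 in zones 3 and 4 at pH 5.7 and from -0.72 to 1.92 at pH 4.6. For rpl22 the low pH arrays were below both standard arrays in zones 2 and 4, and the groups overlapped in zones 1 and 3. In intensity, rpl22 read 168 and 249 in zone 2 at pH 4.6 against 419.7 and 3521 at pH 5.7. Over the same arrays rpl20 read 1681 and 1694 against 598 and 2014, so of these 2 ribosomal genes rpl22 alone was lower on both low pH arrays.

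**Figure D5:**
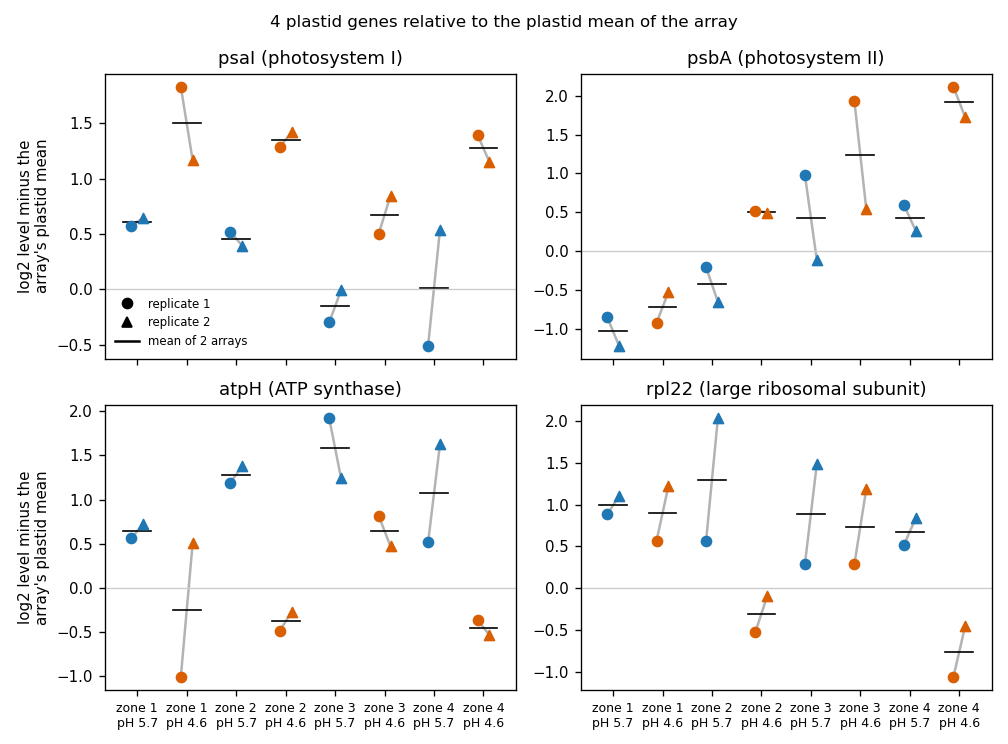
Log2 level of psaI, psbA, atpH and rpl22 minus the mean log2 level of the 69 plastid genes on the same array, for the 16 arrays; circles are replicate 1, triangles replicate 2, bars the mean of 2 arrays, blue pH 5.7 and orange pH 4.6. The orange points of psaI are above the blue points of the same zone in all 4 zones, and those of atpH are below them.

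By role, the ATP synthase mean relative to the plastid mean was 0.48, 0.64, 0.65 and 0.52 in zones 1 to 4 at pH 5.7, and -0.03, 0.14, 0.11 and -0.14 at pH 4.6, with replicates 0.09 to 0.68 apart. The NDH mean was -0.45, -0.38, -0.51 and -0.44 in zones 1 to 4 at pH 5.7 and -0.22, -0.91, -0.34 and -1.04 at pH 4.6, so it was higher at low pH in zones 1 and 3 and lower in zones 2 and 4, with replicates 0.11 to 0.92 apart. The polymerase mean was 0.13, -0.21, -0.26 and -0.17 at pH 5.7 and -0.03, 0.46, -0.08 and 0.06 at pH 4.6, lower at low pH in zone 1 and higher in the others, with replicates 0.05 to 0.60 apart. These role means were not tested. In the covariate fit of zone 4 alone 8 genes changed, 5 higher (nad5, psaI, psbA, psbM and rpl32) and 3 lower (atpI, ndhJ and rpl22), at backgrounds of 2.92% and 2.57%. From zone 2 to zone 3 at pH 4.6 that fit called 13, of which rbcL and psbA were higher by 1.01 ± 0.28 and 1.08 ± 0.30 and 11 were lower, among them rpl16 by -1.40 ± 0.29 and clpP by -1.19 ± 0.31, at backgrounds of 11.7% and 11.4%.

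Genes that lie next to each other on the plastid genome were compared after the array mean of the plastid genes was removed. Over 64 neighbouring pairs the median r across 16 arrays was 0.17, against -0.03 over the other 2282 pairs. The highest were ndhJ with ndhK at 0.87, psbT with psbN at 0.81, and atpA with atpF at 0.66. The pairs atpI with atpH and atpF with atpH, of the same stretch, had 0.49 and 0.43. Of the 64 pairs 23 were below 0, the lowest being psbI with atpA at -0.72, rpl22 with rps19 at -0.67 and psbN with psbH at -0.58. With the array mean kept in, neighbours and other pairs were alike, at medians of 0.82 and 0.80. These are descriptions over arrays that share their labelling, and no test was run on them.

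Nuclear genes for the same organelles mostly had lower means at low pH in zone 1. From lists of nuclear genes, 8 of 44 photosynthesis genes, 6 of 30 plastid ribosomal proteins, 1 of 9 NDH subunits, 1 of 20 genes of organelle transcription and 11 of 26 of mitochondrial respiration had a single-gene probe set that was tested. At low pH in zone 1 the nuclear photosynthesis genes had a median of -1.08, with 6 of 8 lower, and PSAE-1, a photosystem I subunit at the ferredoxin side, fell by 2.06 ± 0.39 (limma adjusted p = 0.0262), at a background of 0.378% called lower. The 6 nuclear plastid ribosomal genes all had a lower mean there, by a median of -0.42. Of these 0 were called and 1 had an unadjusted p under 0.05, where 12.9% of all probe sets did. The 11 respiration genes had a median of -0.20, with 0 called and 1 at an unadjusted p under 0.05, against the same 12.9%. The NDH subunit NdhN differed by 0.09 and the transcription gene AT5G15700 by -0.68, neither past the threshold. The mean of the nuclear photosynthesis genes correlated with the log2 first quartile at r = 0.031, that of the plastid ribosomal genes at -0.123 and that of the respiration genes at 0.188. The mean of 2 nuclear NDH genes, NdhN and 1 that did not pass the filter, did so at r = 0.674. For AT5G15700 it was -0.160. The plastid photosystem genes did so at r = 0.892.

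From zone 2 to zone 3, 7 of the 8 nuclear photosynthesis genes rose at pH 5.7 and 6 of 8 at pH 4.6, with medians of 1.77 and 1.75 over the 8, at backgrounds of 13.6% and 10.1% called higher. The plastid genes had medians of 0.04 and 0.89 over the same steps, and of -1.24 without replicate 2 of zone 3 at pH 5.7 and -0.17 without replicate 2 of zone 3 at pH 4.6. Among the nuclear genes PSAE-1 rose by 4.24 ± 0.39 and PSBW, a photosystem II subunit, by 2.76 ± 0.41 at pH 5.7. In the mean of 4 zones 2 of the 8 fell at low pH, LHCB4.2, an antenna protein, by 1.01 ± 0.23 (limma adjusted p = 0.0171) and PSBW by 0.87 ± 0.21 (adjusted p = 0.0213), at a background of 2.4% called lower, and all 8 had a lower mean. The difference between the nuclear and the plastid genes was not tested.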

How the data were processed

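The RNA of 16 root samples was measured on Affymetrix arrays after labelling in 2 amplification cycles, per the labels. The deposited values are linear intensities from MAS5, per the submitters' processing notes, which leave its version and settings unstated. No further normalization was applied. Of 22810 probe sets, 64 controls were left out. Genes were named through the platform annotation and RefSeq's gene table, plastid genes by Entrez identifier and mitochondrial genes by symbol. Probe sets listed with several genes (503) or not listed (8730) were left unnamed.

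Intensities were tested as log2(intensity + 16). The pseudocount understates the change of dim genes. Probe sets whose mean over the 4 arrays of a zone reached the 40th percentile of such means (log2 value 5.95) in at least 1 zone were fitted together with limma 3.58.1 in R 4.3.3, with 8 group means, eBayes with a trend (8 residual and 7.44 prior degrees of freedom) and two-sided p-values adjusted by Benjamini-Hochberg over 16405 probe sets, at a threshold of 0.05. Comparisons were low pH against standard pH in each zone and averaged, their interaction, and each step between neighbouring zones. With 2 arrays in each group, the smallest p of an exact permutation test is 0.333. The number of arrays limits the precision.

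A gene with several probe sets is represented by 1 of them. Members and lists, and the rule for named genes, were chosen with earlier results of these data known: a fixed set of well-known genes per role has all arrays given, and called genes and the largest and smallest differences of a role are named. The rest of the genes whose arrays are printed, such as psaI, petL and rpl22, were chosen after their values were seen. On simulated data with 200 changed probe sets, 150 were recovered among 160 called. Those data had independent errors of equal spread in all groups and large changes planted in a single group. The organelle genes moved together and their spread differed between groups, so this does not measure recovery for them. Replicate numbers were not used to pair the samples in the main fit. Deviations of same-numbered arrays correlated between -0.249 and 0.414 over 28 pairs of groups, with a median of 0.011. The 4 arrays of raised first quartile were all replicate 2. An effect shared by arrays of the same number was not tested beyond the replicate block listed next. Alternatives were the pseudocount, the filter, 3 other scalings, the first quartile or the plastid mean as a covariate, a replicate block, and arrays left out.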

Additional observations from a re-analysis of the deposited data

Results flagged for a closer look

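The difference between the low pH effects of 2 zones was looked at wherever both arrays moved up at low pH in the one zone and both moved down in the other. For the mean log2 intensity of the 69 plastid genes, low pH was 2.47 higher in its effect in zone 1 than in zone 2. The same difference was 2.51 for the plastid photosystem genes, 3.23 for the NDH genes and 2.47 for the ATP synthase genes. These differences of means were not tested.

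Among the genes whose arrays are given, 14 showed such opposite shifts between zones 1 and 2. The difference of the log2 effects was 5.04 for psbN, 4.97 for ndhH, 4.31 for nad4L, 3.98 for rpl22, 3.54 for petG, 3.03 for rps14, 3.02 for psaA, 2.82 for rbcL, 2.66 for accD, 2.65 for psbD, 2.42 for rps4, 2.38 for cox2, 2.16 for petB and 1.44 for psbC. Between zones 2 and 4 it was -2.73 for rps14, -2.16 for nad4L, -1.84 for psbC and -1.56 for accD. Between zones 1 and 4 it was 2.69 for rpl22, and between zones 1 and 3 it was 2.28 for matR and 2.39 for nad2. The limma interaction test called none of the 83 organelle genes tested, nad2 not among them, and 11 had an unadjusted p under 0.05, where 16.9% of all probe sets did. Over all members, 28 of 69 plastid and 5 of 16 mitochondrial genes were higher on both low pH arrays in zone 1 and lower on both in zone 2. The share of all probe sets with such opposite shifts was not computed, so the counts of genes with them cannot be set against it. In zone 2 at pH 5.7 the replicates had first quartiles of 17.7 and 30.4, and the part of that gap in these differences was not tested.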

How the results depend on the processing

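The medians over plastid genes kept their direction for low pH in zone 1 and for the step from zone 1 to zone 2 at pH 4.6 under every other pseudocount, filter, scaling, block and first quartile covariate tried. Leaving out 1 array gave 1.32 to 1.89 for the former and -2.31 to -1.85 for the latter. Over all comparisons, 39 of 528 recomputed medians turned sign and 74 of 300 counts of called genes moved by over 1.5 times; the cause was not tested.

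With the log2 first quartile as a covariate the number of organelle genes called was 3 (lower) for low pH in zone 2. It was 8 (3 higher, 5 lower) in zone 4 and 11 (7 higher, 4 lower) in the average of zones. From zone 2 to 3 it was 8 (lower) at pH 5.7 and 8 (2 higher, 6 lower) at pH 4.6. At pH 4.6 it was 33 from zone 1 to 2 and 6 from zone 3 to 4, all lower. With a replicate block it was 2 (higher), 1 (lower) and 3 (higher) for low pH in zones 1, 2 and 4, and 6 (5 higher, 1 lower) in the average. It was 13 (lower) from zone 3 to 4 at pH 5.7, and 41 (lower), 4 (higher) and 2 (lower) over the 3 steps at pH 4.6. Without the arrays of raised first quartile it was 40 and 8 for low pH in zones 1 and 4, 22 in the average, 6 and 0 over the last 2 steps at pH 5.7, and 67 and 11 over the first 2 at pH 4.6. The genes counted without those arrays were all higher for low pH and all lower over the steps. In that fit the plastid median from zone 2 to 3 was -0.57 at pH 5.7 and -0.17 at pH 4.6. With all arrays it was 0.04 and 0.89. With the plastid mean as a covariate, added after seeing the data, the number called was 1 (higher) for low pH in zone 2. It was 8 (5 higher, 3 lower) in zone 4 and 13 (9 higher, 4 lower) in the average. From zone 2 to 3 at pH 5.7 it was 2 (higher). Over the steps at pH 4.6 it was 0, 13 (2 higher, 11 lower) and 2 (1 higher, 1 lower). A pseudocount of 1 and no filter on low values each left 2 from zone 1 to 2 at pH 4.6. The share of all probe sets called also changed with the fit. It is not set beside each of these counts, nor beside those with 1 array left out below. These counts therefore do not show whether organelle genes were called more often than other probe sets.

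Leaving out 1 array in turn gave 0 to 12 genes for the interaction, 0 to 4, 0 to 7 and 0 to 5 for low pH in zones 1, 3 and 4, and 1 to 13 in the average. It gave 0 to 10 and 0 to 54 over the last 2 steps at pH 5.7, and 0 to 37, 0 to 5 and 0 to 1 over the steps at pH 4.6. The counts of 54, 12 and 7 came without replicate 1 of zone 3 at pH 5.7. nad5 kept its average low pH call in 25 of 25 alternatives, psbA in 24 and rps18 in 14. Among the step calls, cox2 and psbD kept theirs in 22 of 25, nad5 in 21, nad4L, psbA and rps14 in 20, nad9 in 18, petG in 16, ndhH in 14, matK and ccmFC in 11, psbM in 9 and psaA in 8, and nad5 kept its zone 4 call in 17. The average low pH values of rpl22, ndhJ and atpA, not called with all arrays, turned to 0.053, 0.21 and 0.17 without the arrays of raised first quartile, and atpA ranged from -0.96 to 0.013 when 1 array was left out, turning without replicate 2 of zone 3 at pH 5.7. At equal plastid mean the 13 genes kept their direction when any 1 array was left out, and 9 of the 13 kept their call in all 16 such fits. Without the 4 arrays of raised first quartile all 13 kept their direction, with values from -2.06 for atpH to 1.44 for rpl20. In that fit 4 groups hold 1 array each, which leaves little to estimate the errors from, so only effect sizes are given.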
